A study of Rattus norvegicus with 4 samples.

Results

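The genes described here encode molecular chaperones, their cochaperones and the main transcription factors of the unfolded protein response. They were chosen by symbol. All Hspa, Hspb, Hspd, Hspe, Hsph, Hsp90, Dnaja, Dnajb, Dnajc, Pdia and Bag genes were taken, together with Atf3, Atf4, Atf5, Atf6, Ddit3, Xbp1, Calr and Canx. This gave 89 of the 17327 gene symbols in the deposited counts. Of these, 30 had enough counts to be tested, out of 2438 tested genes in all. RNA-Seq was performed on OLN93, a spontaneously immortalized rat oligodendroglial cell line. The controls were 2 Sox10-positive libraries, control 1 and control 2, and the Sox10-deficient group consisted of clones A and B, in which Sox10 had been inactivated by CRISPR/Cas9 with different guide RNAs. All cells were grown in DMEM with fetal calf serum. Each edited library stands for a single cell clone, so that differences between clones and effects of Sox10 loss rest on the same 2 libraries, and the labels call the controls biological replicates whereas the methods of the study call them clones.

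Chaperones bind unfolded proteins and help them to fold. Hsp70 proteins work with J proteins (Dnaj), which deliver substrates and stimulate ATP hydrolysis, and with Bag proteins, which promote nucleotide exchange. In the endoplasmic reticulum (ER), the Hsp70 protein BiP (Hspa5), the Hsp90 protein Grp94 (Hsp90b1), the lectins calnexin and calreticulin and the protein disulfide isomerases fold secreted and membrane proteins. When unfolded proteins accumulate there, Atf6, Xbp1 and Atf4 induce ER chaperones and, under prolonged stress, Ddit3 (Chop). This response is of interest in oligodendroglial cells because myelin formation requires the synthesis of large amounts of membrane protein and lipid. Heat shock factors act in a similar way on cytosolic and mitochondrial chaperones.

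Library totals of the deposited counts lay between 60951 and 104017. Levels are given as normalised CPM, in which each count is scaled by its library total and normalisation factor, and they are compared within a gene only. A count of 3, taken as the floor of detection, corresponded to between 29.1 and 48.0 CPM. These counts are shallow against the table of means that the authors deposited, whose mean normalised counts add up to 19320879. The 89 genes took between 1.11% and 1.46% of the counts of a library. Both controls had Sox10 reads (28 and 64), clone A had 0, and clone B retained 14. Of the oligodendroglial markers, Mag had no count in any library and Mbp had at most 2, whereas Cnp and Pdgfra were present in all libraries. The counts of 4 astrocyte markers and of 4 neuronal markers summed to at most 1 in every library, and those of 4 fibroblast markers to between 12 and 41, most of them from Col1a1. The 10 oligodendroglial markers, Sox10 among them, together reached 2558 and 2152 CPM in the controls but 1626 and 1416 CPM in the clones. They did not run one way, since Cnp was lower in both clones, Cspg4 was higher (256 and 301 against 674 and 408 CPM) and Pdgfra overlapped. Of the Schwann cell and neural crest markers, Ngfr was present in the controls (37 and 62 counts) and at 0 in both clones, whereas Sox2 lay slightly higher in the clones (192 and 223 against 290 and 272 CPM). The part of these shifts in the results below was not tested. Fewer cells that express a gene and less RNA per cell cannot be told apart in these bulk libraries.

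To show which sequence features the genes share beyond their names, the 250 bases before the start of each gene were searched on both strands for 4 known elements. RefSeq promoter sequences of the rat assembly GRCr8 could be matched for 69 of the 89 genes. The ER stress element (ERSE, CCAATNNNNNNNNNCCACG, the element to which Atf6 binds together with NF-Y) was found in 6 of the 69 promoters (8.7%) and in 21 of all 27457 promoters (0.0765%). The 6 genes were Hspa5, Hsp90b1, Calr, Canx, Dnajc3 and Xbp1, all of which act in the ER or in its stress response. They are shown because the ERSE is the element through which Atf6 is known to act. The element is given in capitals, and in Calr and in the second window of Hsp90b1 it lies on the opposite strand and therefore reads as its reverse complement.
Hspa5, GRCr8 chr3:38452953-38453011, plus strand: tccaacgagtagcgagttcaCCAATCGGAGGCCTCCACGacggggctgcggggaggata
Hsp90b1, GRCr8 chr7:23012431-23012489, minus strand: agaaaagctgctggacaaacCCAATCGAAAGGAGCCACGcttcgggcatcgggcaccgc
Hsp90b1, GRCr8 chr7:23012327-23012385, minus strand: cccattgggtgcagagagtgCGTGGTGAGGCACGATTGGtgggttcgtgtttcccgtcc
Calr, GRCr8 chr19:40213117-40213173, plus strand: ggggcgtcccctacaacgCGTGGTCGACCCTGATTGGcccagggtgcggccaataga
Canx, GRCr8 chr10:35158049-35158107, minus strand: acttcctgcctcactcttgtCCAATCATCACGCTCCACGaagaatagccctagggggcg
Dnajc3, GRCr8 chr15:102432514-102432572, plus strand: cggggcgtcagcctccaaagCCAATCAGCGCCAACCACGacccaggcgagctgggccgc
Xbp1, GRCr8 chr14:84604538-84604596, plus strand: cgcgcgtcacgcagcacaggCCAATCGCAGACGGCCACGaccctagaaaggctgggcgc

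In Hspa5 the element began 43 bases before the start of the gene, and in Canx and Calr it began 230 and 232 bases before it. A second form of the element, ATTGGNCCACG, was found in none of the 69 promoters and in 12 of all promoters (0.0437%). The heat shock element (HSE, GAANNTTCNNGAA) was found in 4 of the 69 promoters (5.8%) and in 164 of all promoters (0.597%). These 4 genes were Hspa8, Hspd1, Hspe1 and Hsph1. Hspd1 and Hspe1, which encode the mitochondrial chaperonin Hsp60 and its partner Hsp10, lie head to head and share the same stretch of promoter. The windows of Hspe1 and Hsph1 are shown with the HSE in capitals. Hspe1 has overlapping matches on both strands, the first line marking the one on the opposite strand and the second line the one on the strand of the gene, and the match in Hsph1 lies on the opposite strand.
Hspe1, GRCr8 chr9:64084242-64084294, plus strand: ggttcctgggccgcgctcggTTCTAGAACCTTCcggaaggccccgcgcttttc
Hspe1, GRCr8 chr9:64084247-64084299, plus strand: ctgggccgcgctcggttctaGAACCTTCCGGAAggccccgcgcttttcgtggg
Hsph1, GRCr8 chr12:10427312-10427364, plus strand: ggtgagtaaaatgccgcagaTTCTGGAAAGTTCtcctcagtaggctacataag
The amino acid response element core TGATGNAA, to which Atf4 binds with C/EBP proteins, was found in 3 of the 69 promoters (4.35%) and in 899 of all promoters (3.27%), and its 3 members were Hspa9, Hspa14 and Hspb9. A match describes these letters only and is not evidence of binding in OLN93 cells.

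Across all roles, few of the 30 tested chaperone and stress genes passed a test, and the other 59 of the 89 were not tested. Of the 30 tested genes, 13 had a positive and 17 a negative log2 fold change, with a median of -0.05, against -0.01 for all 2438 tested genes. In 15 of the 30 the sign turned when 1 of the libraries was left out. By an adjusted p of 0.05 or less in edgeR's quasi-likelihood test, 1 of the 30 genes was higher in the clones (3.33%, against a background of 1.19% of all tested genes) and 0 were lower (background 2.5%). DESeq2 called 0 of them in either direction, against 11 higher and 30 lower of all 2438 genes. It gave no adjusted p for several of them, among them Atf5 and Dnajc7, so that these could not be called by it. Without adjustment but with a change of at least 2-fold, 2 were higher (6.67%, background 4.63%) and 1 was lower (3.33%, background 6.97%), and the same numbers passed an unadjusted p of 0.05 without the 2-fold requirement. The higher genes were Dnajc17 and Atf5, and the lower gene was Dnajc7. All 3 passed the filter on low counts only through the group in which they were high. The calls and their shares in this fit therefore depend on that filter. Once every library had to hold 10 counts or more, none of the 3 was tested. That 0 genes were called in that setting therefore says nothing about these 3. Without a filter all 3 met the unadjusted criterion again, as given further on. In 4 of the 30 genes both clones lay above both controls (13.3%, background 21.6%), and in 5 both lay below (16.7%, background 21.4%). Neither share exceeded that of all genes. The standard error of a log2 fold change was 0.45 in the median. The 95% interval excluded a 2-fold change in either direction for 7 of the 30 genes. For the others a change of 2-fold or more was not excluded at this depth.

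**Figure D1:**
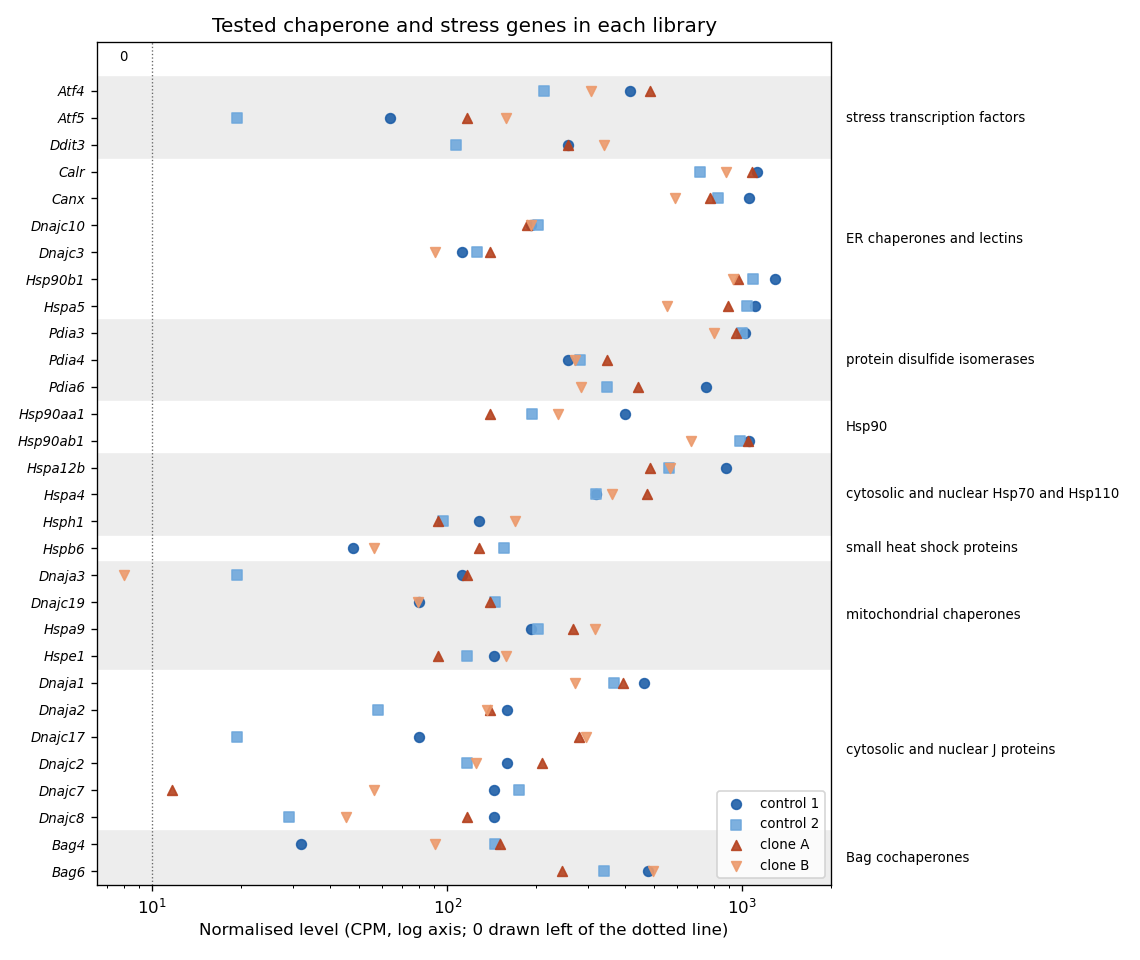
Normalised level (CPM, log axis) of the 30 tested chaperone and stress genes in control 1, control 2, clone A and clone B, grouped by role; 1 point is 1 library and a value of 0 is drawn left of the dotted line. In most rows blue (controls) and red or orange (clones) symbols intermingle. Both clones lie to the right of both controls for Dnajc17, Atf5, Hspa4 and Hspa9. They lie to the left for Dnajc7, Hspa5, Hsp90b1, Canx and Pdia3.

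**Figure D2:**
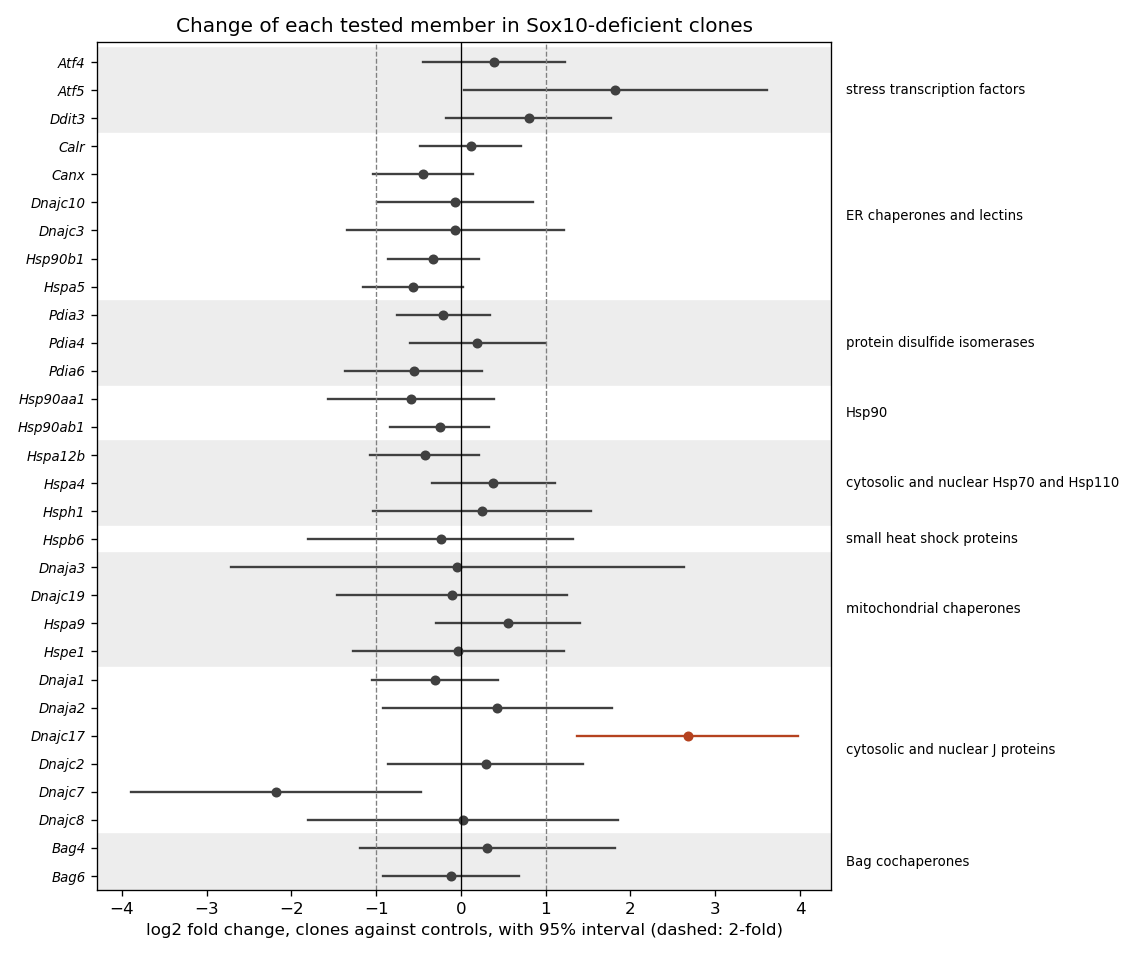
Log2 fold change (x axis, clones against controls) of the same 30 genes with its 95% interval from edgeR; dashed lines mark a 2-fold change and red marks an adjusted p of 0.05 or less. Only the interval of Dnajc17, from 1.37 to 3.97, lies wholly beyond 2-fold.

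Among the ER chaperones, 14 genes were listed, 6 were tested and none passed either criterion. Hspa5 (ENSRNOG00000018294), the central ER Hsp70 that also restrains the stress sensors, was counted 69 and 107 times in controls 1 and 2, against 77 and 49 in clones A and B. Its level was 1070 ± 46.5 against 725 ± 240 (SD, n = 2 each), and both clones lay below both controls. This gave a log2 fold change of -0.56 with a standard error of 0.28 (edgeR, adjusted p = 0.373), and its interval ran from -1.16 to 0.03. Clone B decided the size of this difference, which was -0.26 when clone B was left out and -0.93 when clone A was.

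Hsp90b1 (Grp94), which folds integrins and Toll-like receptors, was counted 81 and 112 times in controls 1 and 2, against 83 and 82 in clones A and B. Its level was 1190 ± 148 CPM in the controls and 946 ± 25.1 in the clones (SD, n = 2 each), again with both clones below both controls. Here the log2 fold change was -0.33 with an interval from -0.86 to 0.21, which excludes a 2-fold change. Canx, the membrane-bound lectin of the calnexin cycle, had 66 and 85 counts against 67 and 52, with a log2 fold change of -0.45 (interval -1.04 to 0.14). The groups did not overlap in CPM for this gene either. Its soluble relative Calr had 70 and 74 counts against 93 and 78, and the groups overlapped, with a log2 fold change of 0.12 (interval -0.48 to 0.71).

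The ER J proteins Dnajc10 and Dnajc3 were at nearly the same level in both groups. Dnajc10, a J protein with thioredoxin domains that reduces disulfides of misfolded proteins, had 12 and 21 counts against 16 and 17, or 198 ± 8.30 against 189 ± 4.71 CPM (SD, n = 2 each). Dnajc3 (p58IPK) had 7 and 13 counts against 12 and 8. Its log2 fold change was -0.07 with an interval from -1.35 to 1.22. The summed level of the 14 ER genes was 5163 and 4168 CPM in the controls and 4217 and 3420 CPM in clones A and B, so that the groups overlapped. Over the 5 tested genes with an ERSE, the median log2 fold change was -0.33, 4 of 5 values were negative and none passed the test. Of all 2438 tested genes, 1232 had a negative value. For Calr and Dnajc3 the sign turned when 1 of the libraries was left out.

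The protein disulfide isomerases form and rearrange the disulfide bonds of proteins in the ER. Pdia3 (Erp57), which cooperates with the lectins, was counted 64 and 103 times in controls 1 and 2, against 82 and 71 in clones A and B. This corresponded to 1011 ± 17.4 and 878 ± 105 CPM (SD, n = 2 each). The difference was -0.21 on the log2 scale, with an interval from -0.75 to 0.34 that excludes a 2-fold change. Both clones lay below both controls. Pdia6 had 47 and 36 counts against 38 and 25, with a log2 fold change of -0.56 (interval -1.37 to 0.25), and Pdia4 had 16 and 29 against 30 and 24, with 0.19 (interval -0.60 to 0.99). For both genes the groups overlapped. The value of Pdia6 was 0.029 without control 1 and -1.08 without control 2. Pdia2 had 0 and 8 counts against 7 and 9 and was not tested, and Pdia5 had 2 in each control and 0 in both clones, all under the floor.

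The stress transcription factors were the sole role group in which all tested genes had a positive log2 fold change, although only 3 of its 6 genes could be tested and control 2 decided the sign of Atf4. Of all tested genes, 49.5% had a positive value. The counts of Ddit3 were high for its mean in the authors' table. Atf5 overlaps Nup62, whose counts ran the same way, as given further on. Atf4, the factor translated when the integrated stress response is active, was counted 26 and 22 times in controls 1 and 2, against 42 and 27 in clones A and B. Its level was 314 ± 143 CPM in the controls and 397 ± 129 in the clones (SD, n = 2 each), and the groups overlapped. This was a log2 fold change of 0.39 (interval -0.45 to 1.22), which became -0.10 without control 2 and 0.87 without control 1. Ddit3, which encodes the proapoptotic factor Chop, had 16 and 11 counts against 22 and 30. The groups overlapped in CPM by a narrow margin, and the log2 fold change was 0.80 (interval -0.18 to 1.78), with 0.19 without control 2 and 1.45 without control 1.

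Atf5 (ENSRNOG00000020060), a relative of Atf4 that is also linked to the mitochondrial stress response, was counted 4 and 2 times in controls 1 and 2, against 10 and 14 in clones A and B. This was 41.7 ± 31.5 against 137 ± 30.0 CPM (SD, n = 2 each), and both clones lay above both controls. The log2 fold change of 1.82 had a standard error of 0.85. It passed the unadjusted criterion but not the adjusted one (edgeR, adjusted p = 0.319), and its adjusted p stayed between 0.318 and 0.856 in the alternatives that gave one. Leaving out control 2 gave 1.06, and leaving out control 1 gave 2.72.

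The remaining factors had too few counts. Xbp1, whose mRNA is spliced by the ER stress sensor Ire1, was counted 1 and 2 times in controls 1 and 2, against 7 and 2 in clones A and B. The pooled counts gave a ratio of 2.85 with a 95% interval from 0.711 to 16.4, which covers counting error only. Atf6 had 6 and 4 counts against 5 and 3, a ratio of 0.760 (interval 0.261 to 2.14), and Atf3, a gene induced by many stresses, had 0 counts in all libraries. The summed level of the group was 847 and 397 CPM in the controls and 999 and 861 CPM in the clones, with no overlap, but control 1 lay close to clone B. In the deeper table of the authors, the mean normalised count over all libraries was 1371 for Xbp1, 1638 for Atf6 and 1 for Atf3.

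**Figure D3:**
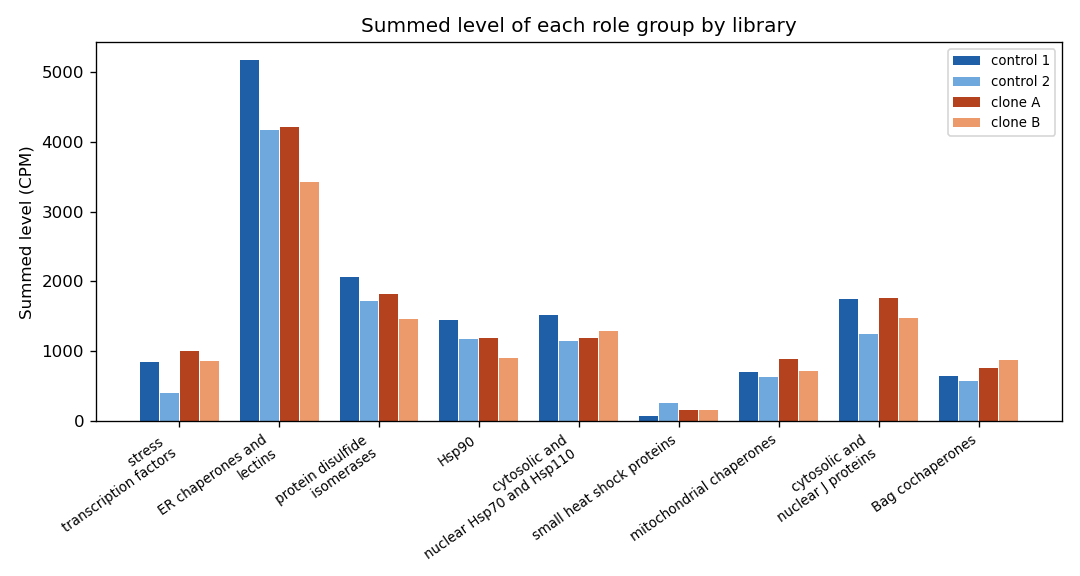
Summed level (CPM, y axis) of all genes of each role group in control 1, control 2, clone A and clone B; 1 bar is 1 library. The bars of the ER chaperones reach from 3420 to 5163 CPM with clone A between the controls, and the bars of the stress transcription factors show the low value of control 2 (397 CPM).

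The cytosolic Hsp90 genes were both tested and neither passed a criterion. Hsp90ab1, the constitutive form, was counted 66 and 101 times in controls 1 and 2, against 90 and 59 in clones A and B, or 1017 ± 53.7 against 857 ± 267 CPM (SD, n = 2 each). Its log2 fold change was -0.25 and the interval from -0.83 to 0.34 excludes a 2-fold change. Hsp90aa1, the inducible form, had 25 and 20 counts against 12 and 21. It had a log2 fold change of -0.59 (interval -1.57 to 0.39), and the groups overlapped, with clone B above control 2. Without control 1 the difference was only -0.06.

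For the cytosolic Hsp70 and Hsp110 genes, 3 of 11 could be tested, and again none passed. Hspa4 (Apg-2), a nucleotide exchange factor of the Hsp110 class, was counted 20 and 33 times in controls 1 and 2, against 41 and 32 in clones A and B. Both controls were at 320 CPM (SD 0.127, n = 2) and the clones at 419 ± 80.5 (SD, n = 2), so that the groups did not overlap, with a log2 fold change of 0.38 (interval -0.34 to 1.11). Hsph1, an Hsp110 gene with an HSE in its promoter, had 8 and 10 counts against 8 and 15. Its log2 fold change was 0.25 (interval -1.03 to 1.53). Hspa1b, the classical stress-inducible Hsp70, had 3 and 9 counts against 3 and 4. The pooled ratio was 0.554 (interval 0.185 to 1.53, counting error only).

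Several genes of this group cannot be read from these counts. Hspa1a, with 0 counts, and Hspa1b are near-identical copies, and only unique mappings were counted, so that both are uncertain. The authors' table lists Hspa1b in more than 1 row, with means of 0 and 4, which is low for a gene with 19 counts in all here. For lack of a single row it is left out of the comparison with the authors' means given further on. Hspa8, the constitutive Hsc70, had 0 counts in all libraries and a mean of 17 in the authors' table. It has many processed copies in rodent genomes and is likewise uncertain. Hspa4l was counted 0 and 2 times in controls 1 and 2, against 8 and 4 in clones A and B, and its pooled ratio was 5.70 with a wide interval from 1.27 to 52.5 (counting error only). Without a filter on low counts, its adjusted p was 0.712 (edgeR).

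The small heat shock proteins were almost absent from the counts. Of 8 genes, 6 had 0 counts in all libraries, among them Hspb1 (Hsp27) and Hspb8. Hspb6 (Hsp20) was the sole tested member, with 3 and 16 control counts against 11 and 5. Its log2 fold change was -0.24 with a standard error of 0.74, and each group had a high and a low library. Altogether 15 of the 89 genes had 0 counts in all libraries. The 14 of these with a single row in the authors' table had means of at most 166 there, and 7 were listed at 0.

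Among the genes for mitochondrial chaperones, 4 of 10 were tested and none passed. Hspa9 (mortalin), the Hsp70 that pulls proteins into the mitochondrial matrix, was counted 12 and 21 times in controls 1 and 2, against 23 and 28 in clones A and B. Its level was 198 ± 8.30 against 292 ± 35.3 CPM (SD, n = 2 each), with no overlap and a log2 fold change of 0.55 (standard error 0.40). Hspe1 had 9 and 12 counts against 8 and 14, with a log2 fold change of -0.03 (interval -1.27 to 1.21). Its partner Hspd1 was not tested, with 3 and 8 counts against 7 and 9 and a pooled ratio of 1.38 (interval 0.602 to 3.29). Dnajc19, a J protein of the import motor, had 5 and 15 counts against 12 and 7. Dnaja3 (Tid1), which works with mortalin, had 7 and 2 counts against 10 and 0, and its interval from -2.71 to 2.63 was the widest of all tested members.

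Of the cytosolic and nuclear J proteins, 27 genes were listed and 6 were tested. Dnajc17 (ENSRNOG00000012368), a nuclear J protein with an RNA recognition motif that is linked to splicing, was the gene that passed the adjusted threshold. It was counted 5 and 2 times in controls 1 and 2, against 24 and 26 in clones A and B. Its level rose from 49.7 ± 42.8 to 287 ± 11.1 CPM (SD, n = 2 each). On the log2 scale this was a change of 2.67 ± 0.62 (standard error), with an adjusted p = 0.0197 in edgeR. Both clones were far above both controls. Its counts were high for its mean in the authors' table and ran the same way as those of the adjoining gene Gchfr, as given further on. The call was lost with DESeq2 (adjusted p = 0.101) and when control 2, clone A or clone B was left out. Without control 2 every call of the whole table was lost, so that this loss is not particular to Dnajc17. Leaving out control 2 lowered the log2 fold change to 1.79, and leaving out control 1 raised it to 3.77.

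Dnajc7 (Tpr2, ENSRNOG00000017781), a J protein with tetratricopeptide repeats that passes substrates between Hsp70 and Hsp90, was counted 9 and 18 times in controls 1 and 2, against 1 and 5 in clones A and B. The level was 159 ± 21.6 against 34.1 ± 31.8 CPM (SD, n = 2 each), and both clones lay below both controls. Its log2 fold change of -2.18 (standard error 0.81) passed the unadjusted criterion but not the adjusted one (edgeR, adjusted p = 0.183). Leaving out clone A gave -1.47, and leaving out clone B gave -3.63.

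Dnaja1, the main farnesylated partner of cytosolic Hsp70, had 29 and 38 counts against 34 and 24, with a log2 fold change of -0.31 (interval -1.05 to 0.43). Dnaja2 had 10 and 6 counts against 12 and 12, and Dnajc2 (zuotin), which acts at the ribosome, had 10 and 12 against 18 and 11. Their log2 fold changes were 0.43 and 0.29. Dnajb1 (Hsp40), a typical heat shock gene, could not be tested (4 and 11 control counts, 7 and 6 in the clones). None of these J proteins separated the groups.

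Among the Bag cochaperones, 2 of 6 genes were tested. Bag6, which guards hydrophobic proteins on their way to the membrane, was counted 30 and 35 times in controls 1 and 2, against 21 and 44 in clones A and B, with a log2 fold change of -0.12 (interval -0.92 to 0.69). Bag4 had 2 and 15 counts against 13 and 8, and the untested Bag5 had 2 and 4 against 10 and 3. Bag3 and Bag2, which direct Hsp70 clients towards autophagy and away from ubiquitination, had too few counts for the test, but both clones lay above both controls. Bag3 was counted 3 and 2 times in controls 1 and 2, against 9 and 15 in clones A and B, and the pooled ratio was 4.56 (interval 1.71 to 15.3, counting error only). Bag2 had 0 counts in both controls and 9 and 6 in the clones, which made it at least 2.24-fold higher against a floor of 3 counts per library. The summed level of the 6 Bag genes was 639 and 572 CPM in the controls and 755 and 872 CPM in the clones. This sum holds the untested Bag2 and Bag3, whereas the groups overlapped for Bag1, Bag4, Bag5 and Bag6. It also holds Bag4, whose counts were high for its mean in the authors' table, as given further on.

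Without a filter on low counts, 74 of the 89 genes could be fitted, and 4 were at least 2-fold higher with an unadjusted p of 0.05 or less, where the background was 2.94% of 10024 genes. These were Dnajc17, Atf5, Bag2 and Bag3. Dnajc7 was again the 1 lower gene (background 3.28%). After adjustment, Dnajc17 was the 1 higher gene (background 0.469%) and 0 were lower (background 0.708%). The adjusted p of Bag2 was 0.0569 and that of Bag3 was 0.332 in this fit by edgeR. Of the 55 genes with at least 10 counts in all libraries together, 11 had both clones above both controls (20%, background 20.5%) and 8 had both below (14.5%, background 19%). The other 34 genes had fewer than 10 counts in all.

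The counts of some members exceeded those of other genes of similar abundance. The count per library was 0.384% of the authors' mean normalised count in the median of 5353 genes with a mean of at least 500. For Hspa5 it was 1.00 times this median, and for Hsp90b1, Calr and Canx it was 0.861, 0.956 and 1.15 times. It was 13.5 times the median for Dnajc17, 12.2 times for Bag4 and 7.11 times for Ddit3. Hspa12b, an atypical Hsp70 of endothelial cells, was counted 55 and 58 times in controls 1 and 2, against 42 and 50 in clones A and B, although its mean in the authors' table was 9, a ratio of 1483 times the median. It differed by -0.43 on the log2 scale (interval -1.07 to 0.22), and the groups overlapped. Hspb9, a testis gene, had a mean of 1 and a ratio of 1627 times. Pdia2, Dnajb3 and Dnajb7 had counts here but were listed at 0 in the authors' table. Of 77 members with such a ratio, 7 exceeded 5 times the median, the others being Hspa1l and Dnajc22. Which reads these counts hold was not tested.

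**Figure D4:**
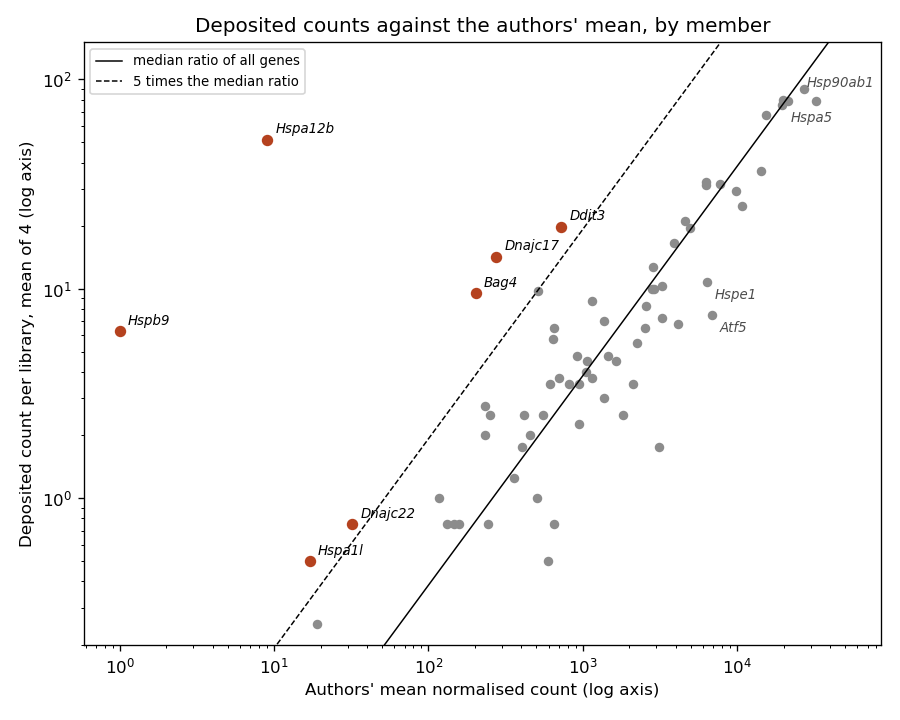
Mean deposited count per library (y axis) against the authors' mean normalised count (x axis), both on log axes, for members with both values above 0; 1 point is 1 gene, the solid line is the median ratio of all genes and the dashed line 5 times that ratio. Red points are the 7 members above the dashed line, among them Hspa12b, Hspb9, Bag4, Dnajc17 and Ddit3, whereas Hspa5 and Hsp90ab1 lie near the solid line.

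For the 3 called members and Hspb9, the counts of 1 adjoining or overlapping gene each ran the same way. Neighbours were taken from GRCr8, whereas the counts rest on rn5, and the pairs were chosen after their values were seen. Gchfr, a regulator of GTP cyclohydrolase and the next gene to Dnajc17, was counted 4 and 7 times in controls 1 and 2, against 20 and 21 in clones A and B, with a log2 fold change of 1.80 (edgeR, adjusted p = 0.0922). Gchfr, too, passed the filter on low counts only through the clones, in which it was high. That it was tested at all therefore depends on that filter. Nup62, which encodes a nuclear pore protein and overlaps Atf5, was counted 140 and 336 times in controls 1 and 2, against 797 and 783 in clones A and B, a log2 fold change of 1.71 (edgeR, adjusted p = 0.00107). Its own ratio to the authors' mean was 35.5 times the median, whereas that of Atf5 was 0.285 times.

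The next gene to Dnajc7 is Cnp, which encodes a myelin-associated phosphodiesterase. Cnp was counted 62 and 68 times in controls 1 and 2, against 35 and 20 in clones A and B, and fell by 1.36 on the log2 scale (edgeR, adjusted p = 0.0331). Hspb9, with 2 and 11 control counts against 3 and 9, ran alongside its neighbour Kat2a, with 2 and 10 against 4 and 9. The untested Pdia2, with 0 and 8 counts against 7 and 9, also lay higher in the clones, as did its neighbour Axin1 (2 and 3 against 6 and 7). Arhgdig, on the other side of Pdia2, had 0 and 1 counts against 0 and 1. Zfyve19, on the other side of Dnajc17, had 0 and 1 counts against 0 and 1. Nkiras2, which overlaps Dnajc7, had 0 and 0 against 2 and 0. Like those of Arhgdig, these counts all lay under the floor of 3 and give no direction. Rab5c, on the other side of Hspb9, had 27 and 50 against 55 and 44. Its highest count was in clone A, where Hspb9 had 3. Mbd6, the next gene to Ddit3, lay higher in both clones than in both controls (208 and 281 against 290 and 328 CPM). Its log2 fold change was 0.31 (edgeR, adjusted p = 0.817). Mars1, which overlaps Ddit3, has no row in the deposited counts. The part of these neighbours in the counts of Dnajc17, Atf5, Dnajc7, Hspb9, Pdia2 and Ddit3 was not tested. The strand option of the counting is not given in the sources used here.

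**Figure D5:**
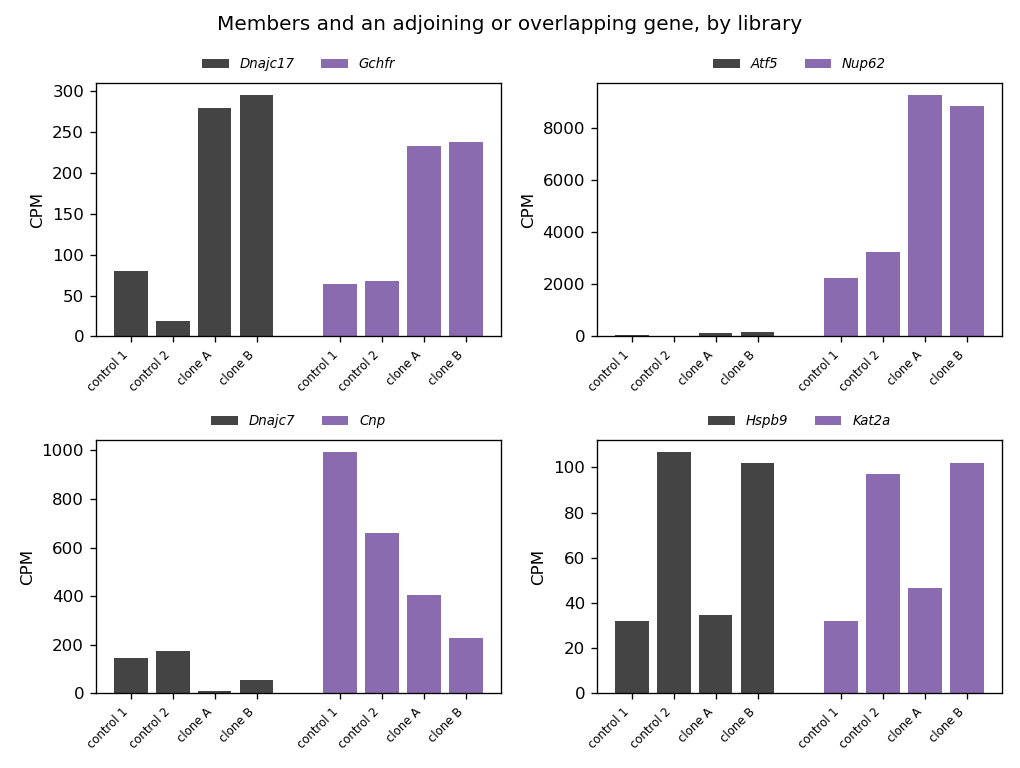
Normalised level (CPM, y axis, starting at 0 and scaled for each panel) of Dnajc17, Atf5, Dnajc7 and Hspb9 (grey) and of an adjoining or overlapping gene, Gchfr, Nup62, Cnp or Kat2a (violet); 1 bar is 1 library. In each panel the violet bars are high or low in the same group or library as the grey bars.

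Other genes of the pathways were taken from 3 lists written from general knowledge. Of 44 further genes of the ER stress response in the counts, 16 were tested. By either criterion of edgeR 0 were called in each direction (backgrounds of 1.19% to 6.97%, as above), with a median log2 fold change of -0.10. Only Uggt1, the folding sensor of the calnexin cycle, had an unadjusted p below 0.05 (15 and 28 counts against 35 and 41, log2 fold change 0.75, adjusted p = 0.326). Hyou1, an ER Hsp110 gene, had 28 and 22 counts against 27 and 29, and P4hb, the prototypic disulfide isomerase, had 69 and 98 against 86 and 89. Their log2 fold changes were 0.015 and -0.03. Of 31 further cytosolic chaperone and cochaperone genes, 14 were tested, 10 had a positive log2 fold change (49.5% of all tested genes had one), and the median was 0.28. By the adjusted criterion of edgeR 0 were called (background 1.19% higher and 2.5% lower), by the unadjusted one Cryab was called as lower (background 6.97%), and Cryab and Stip1 had an unadjusted p below 0.05.

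Cryab encodes alpha B-crystallin, a small heat shock protein outside the symbol rule that is abundant in oligodendrocytes. It was counted 17 and 59 times in controls 1 and 2, against 17 and 3 in clones A and B. On the log2 scale the difference was -1.91 with a standard error of 0.55 (edgeR, adjusted p = 0.0625), and both clones lay below both controls. Stip1 (Hop), which links Hsp70 to Hsp90 and was named after its values were seen, had 13 and 16 counts against 30 and 32, with a log2 fold change of 0.99 (edgeR, adjusted p = 0.224). Of 10 further mitochondrial chaperone and protease genes, 3 were tested, with log2 fold changes between 0.03 and 0.26, and 0 were called or had an unadjusted p below 0.05 (edgeR).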

How the data were processed

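Total RNA of 2 control and 2 Sox10-deficient OLN93 samples had been sequenced with a stranded mRNA kit. The authors used STAR with the rat build rn5 and deposited counts of unique mappings per gene symbol from HTSeq, without normalization. Their comparison table was used for its Ensembl identifiers and its mean normalized count, which the authors rounded and which is treated as a score. Its fold changes and p-values were not used. No summary rows and no columns of other samples were present.

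Counts were filtered (filterByExpr), normalized by TMM and tested by edgeR 4.0.16 in R 4.3.3 (glmQLFit, glmQLFTest, condition as the sole term), after a test on simulated data. P-values were adjusted by Benjamini-Hochberg over 2438 genes and measure the spread between these samples, which may be technical. Standard errors and 95% intervals were derived from the F statistic. Ratios of pooled counts have exact binomial intervals. For a fold against a group at 0, that group was set to 3 counts per library. Calls needed an adjusted p of 0.05 or less, or an unadjusted p of 0.05 or less with a 2-fold change. Genes, lists and tests were chosen with earlier results of these data known. Named were the 8 factors and lectins given by symbol, called genes, the 4 genes with most counts per role, and the largest non-overlapping changes. Bag2, Hspa4l, Stip1, Uggt1, Hyou1, P4hb and the neighbours were named after their values were seen, as were members named beyond this rule. Alternatives were DESeq2 1.42.0, other scalings and filters, the replicate number as a block, leaving out each library, and, added after seeing the data, leaving out members with over 5 times the median ratio to the authors' mean. Protein sequences were not used here. Single values of some marker genes are not reported here.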

Additional observations from a re-analysis of the deposited data

Results flagged for a closer look

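Dnajc1 and Dnajc13 match the symbol rule in the authors' table, with mean normalised counts of 752 and 2692, but have no row in the deposited counts. They were singled out because they show signal in data that the comparison does not use. Their levels by group were not analysed here. Dnajc1 encodes a J protein of the ER membrane and Dnajc13 a J protein of endosomes.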

How the results depend on the processing

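The 1 member called higher after adjustment, Dnajc17, was lost (0 members) with DESeq2, with at least 10 counts in every library, where Dnajc17 was not tested, with the replicate block and without members with an excess of counts, to which it belongs. Leaving out a library gave 0 to 1 such members. In these alternatives 0 members were lower after adjustment. The 2 members higher by the unadjusted criterion became 1 with DESeq2, with the replicate block and without members with an excess of counts, 4 without a filter and 0 with at least 10 counts in every library, and ranged from 1 to 4 when a library was left out. The 1 lower member became 0 with at least 10 counts in every library, and ranged from 0 to 1 when a library was left out. The stricter filter left 18 members, without Dnajc17, Atf5 and Dnajc7, so that these could not be called there. For the other settings the cause was not tested. Leaving out a library moved the members' median log2 fold change to between -0.16 and 0.23, the highest without clone B. The sign of 15 tested members, none of them called, turned when a library was left out. Their log2 fold changes then ranged from -0.10 to 0.87 (Atf4), -0.29 to 1.83 (Bag4), -0.72 to 0.32 (Bag6), -0.22 to 0.43 (Calr), -0.24 to 1.20 (Dnaja2), -0.97 to 0.92 (Dnaja3), -0.54 to 0.41 (Dnajc19), -0.11 to 0.62 (Dnajc2), -0.39 to 0.21 (Dnajc3), -0.86 to 1.41 (Dnajc8), -0.59 to 0.039 (Hsp90ab1), -0.90 to 0.89 (Hspb6), -0.47 to 0.31 (Hspe1), -0.25 to 0.63 (Hsph1) and -1.08 to 0.029 (Pdia6). Dnajc8 also turned with DESeq2 (-0.046) and with library totals alone (-0.0071). With the replicate number as a block, the log2 fold change of Dnajc17 was 2.67 (adjusted p = 0.114 from edgeR). The labels do not say that a number marks a shared origin, and 2 pairs, with a correlation of deviations of 0.122 over 2438 genes, are too few to decide it. The block lowered the calls over all genes from 29 higher and 61 lower to 14 and 28. They were 11 and 30 with DESeq2, 9 and 8 with at least 10 counts in every library, 47 and 71 without a filter, and 0 and 0 without control 2, where 137 and 138 genes passed the unadjusted criterion. Depth limited all results: 59 members had too few counts to be tested.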
